A study of Mus musculus with 18 samples.

Results

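The genes described are the segments of the gamma and delta T cell receptor chains, which were chosen by name as every gene whose symbol starts with Trgv, Trgj, Trgc, Trdv, Trdd, Trdj, Trdc or Tcrg. These were 26 of the 55494 genes of the RNA files. They were counted in 1331 thymocytes from 6 mice, all of which carried a transgenic alpha beta receptor and had been sorted for it. The donors were OT2 (restricted by MHC class II) or OT1 (restricted by MHC class I) mice on a B6 background with the congenic mark CD45.1.2. Donor marrow (30%) was mixed with wild type CD45.1 competitor marrow (70%) and transplanted into the host 6 weeks before collection. All mice were female and 14 weeks old. NegSelected hosts carried RIPmOVA, in which the rat insulin promoter drives an ovalbumin antigen fused to TFRC, PosSelected hosts were wild type C57BL6/Ncr, and NoSelection hosts lacked MHC class II for OT2 and B2m for OT1. Comments in the labels give the mark CD45.2 for the wild type and RIPmOVA hosts and CD45.1 for the NoSelection hosts. The comment of the OT2 NoSelection host names B2m as well, so the labels disagree there. Each pairing of receptor and host was 1 mouse, and all 6 mice were run with hashtags in 1 10x lane. Cells were sorted as CD44lo CD45.1.2+ Va2+ Vb5+, so each cell had been selected for the chains of the transgenic alpha beta receptor and not for a gamma delta receptor.

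A T cell receptor is made either of an alpha and a beta chain or of a gamma and a delta chain. Each chain is assembled in the thymus by joining a variable (V) segment, in the delta and beta chains a diversity (D) segment, and a joining (J) segment, which are then spliced to a constant (C) region. The mouse gamma locus is a row of small clusters, each with its own J segment and C region, while the delta locus lies inside the alpha locus and is cut out when an alpha gene is assembled on that chromosome. Transcripts of unrearranged segments also occur in thymocytes, and a UMI (a unique molecular identifier, which counts 1 captured transcript) of a V or C segment does not show that the chain was assembled in frame or that its protein was made.

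On mm10, the gamma members lie between positions 19178042 and 19352343 of chromosome 13. Their order along the chromosome is Trgv7, Trgv4, Trgv6, Trgv5, Trgj1 and Trgc1 in the first cluster, Trgv3, Trgj3 and Trgc3 in the next, Trgc2, Trgj2 and Trgv2 in a cluster of opposite order, and Trgv1, Trgj4 and Trgc4 at the end. The delta members lie on chromosome 14 from Trdv1, which starts at 53881612, to Trdc (54142851 to 54146108) and Trdv5, which lies behind Trdc (54148662 to 54149201) and is known to join by inversion. Trgc1, Trgc2 and Trgc3 are close copies of each other, as are Trdv2-1 and Trdv2-2, and how reads that match more than 1 copy were assigned is not given in the sources used here. The split between those copies is therefore uncertain.

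Of the 26 members, 23 had at least 1 UMI and 16 had at least 20. In all, 10290 UMIs were counted. The gamma constant genes held 4100 of them, Trdc held 3887, the gamma variable genes 1412, the delta variable genes 597, the gamma joining segments 159 and the delta joining segments 135. Both delta diversity segments (Trdd1 and Trdd2) and Trgj3 had 0 UMIs. Another 7 members had between 2 and 13 UMIs over all 1331 cells. They were Trdj2 (13), Trgc3 (11), Trdv3 (8), Trgv5 (7), Trgv6 (4), Trgv3 (4) and Trdv2-1 (2), and they are not described further.

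Cells were placed in 4 gates by the CD4 and CD8A antibodies, which is a protein measure that does not use the RNA of the segments. CD4-CD8- thymocytes include the earliest T cell precursors and most gamma delta T cells, CD4+CD8+ cells are the stage at which alpha beta cells are selected, and CD4+CD8- and CD4-CD8+ cells are their single-positive products. The gates held 570, 198, 344 and 219 cells. RNA of the same proteins followed the gates. Cd4 RNA was 10.4 CPM (UMIs per 1000000 RNA UMIs) in CD4-CD8- cells against 319 CPM in CD4+CD8+ cells, and Cd8a RNA was 44.9 CPM against 1258 CPM. In OT2 mice, 33 of 177 cells were CD4-CD8- in the NegSelected host, 25 of 254 in the PosSelected host and 51 of 108 in the NoSelection host. OT1 mice had 142 of 204, 90 of 282 and 229 of 306 such cells in the same order of hosts. The RNA total per mouse ran between 525843 and 1867488 UMIs, and the median per cell between 2756 and 5385 UMIs. All values below list the hosts as NegSelected, PosSelected and NoSelection, and intervals cover counting error only.

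Gamma segment transcripts were concentrated in the CD4-CD8- cells of all 6 mice. Those 570 cells held 4000 of the 4100 gamma constant UMIs, 1336 of the 1412 gamma variable UMIs and 153 of the 159 gamma joining UMIs. Trdc was concentrated less, with 3259 of its 3887 UMIs there, and the delta variable genes hardly at all, with 344 of 597. Here and below, delta variable genes are those named Trdv. Variable genes named for both the alpha and the delta chain are not counted among them. The question was which segments differ between CD4-CD8- cells and the other cells of the same mouse. UMIs were summed per mouse and gate and tested with edgeR's quasi-likelihood test with the mouse as a block, over all 7590 genes that passed the filter on low counts, with Benjamini-Hochberg adjustment at 0.05. Of the 26 members, 12 passed that filter. Among these, 9 were higher in CD4-CD8- cells and 0 were lower, where 3.57% of all genes tested were called higher and 2.46% lower. Members with few UMIs in the other cells could pass the filter through their CD4-CD8- level, so nothing is read from this count against the background. For the same reason nothing is read from the median log2 fold change, which was 3.56 over the 12 members and -0.01 over all genes tested.

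**Figure D1:**
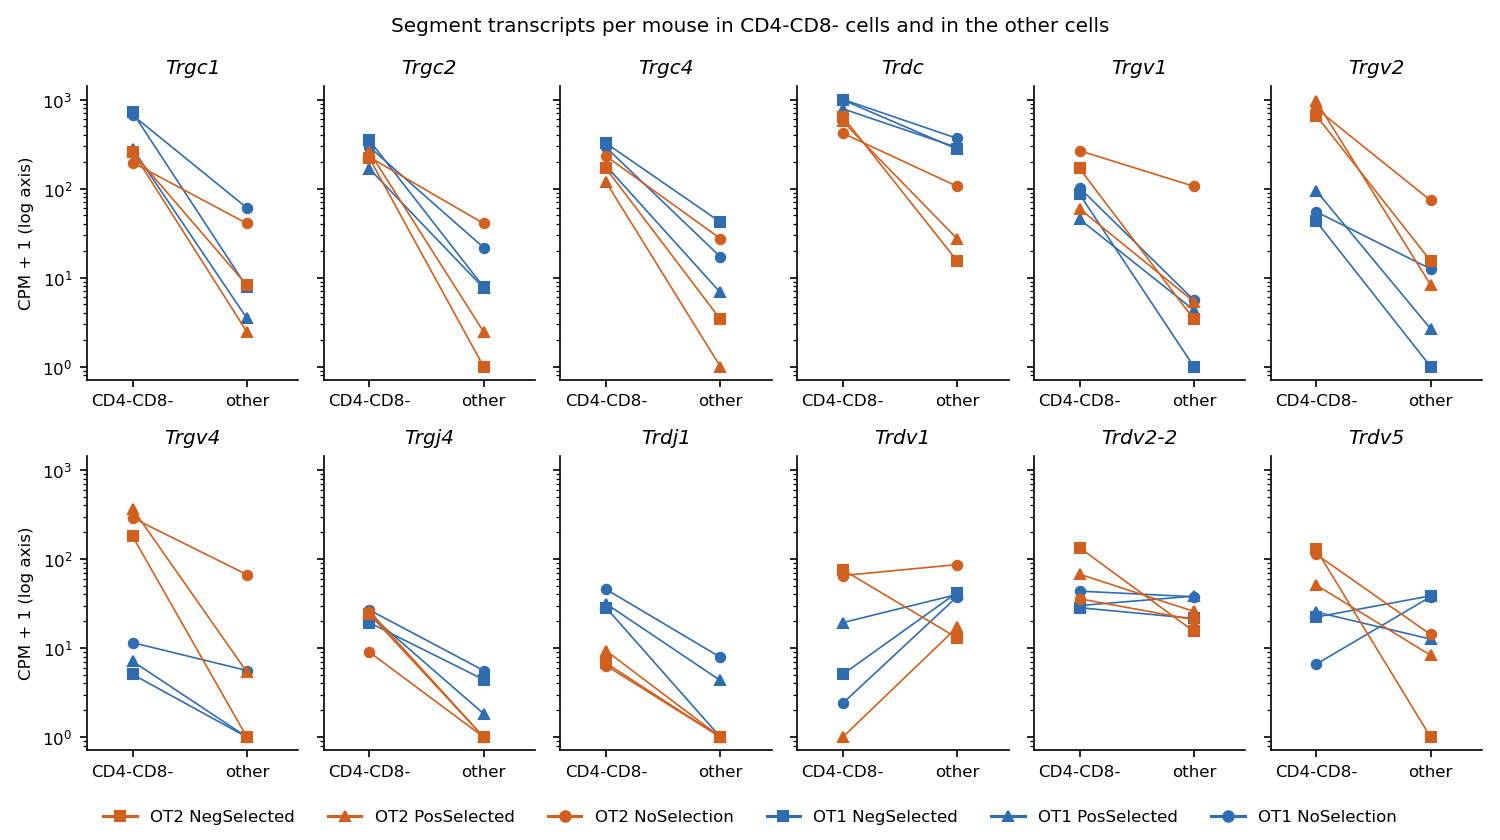
CPM + 1 on a log axis of the 12 tested segment genes in CD4-CD8- cells (left) and in the other cells (right) of each mouse, with 1 line per mouse. Lines of the gamma genes, Trdc and Trdj1 fall from left to right in 6 of 6 mice, while those of Trdv1, Trdv2-2 and Trdv5 run both ways.

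Among the constant genes, which encode the part of the chain that anchors it in the membrane, Trgc1 had 254, 258 and 195 CPM in CD4-CD8- cells of OT2 mice, against 7.21, 1.46 and 39.5 CPM in their other cells. In OT1 mice it had 716, 279 and 667 CPM in CD4-CD8- cells, against 6.83, 2.49 and 59.7 CPM in the other cells. The gates did not overlap, and the NoSelection mice had the highest level outside the CD4-CD8- gate in both receptors. The log2 fold change of Trgc1 was 4.80 (SE 0.41, adjusted p = 2.89e-06 by edgeR). Trgc2 had 219, 258 and 225 CPM in CD4-CD8- cells and 0, 1.46 and 39.5 CPM in other cells of OT2 mice. In OT1 mice it had 348, 166 and 293 CPM in CD4-CD8- cells and 6.83, 6.63 and 20.7 CPM in other cells. It rose by 4.70 on the log2 scale (SE 0.37, adjusted p = 1.30e-06 by edgeR), with no overlap between gates. Trgc4, a more distant copy at the end of the locus, had 167, 117 and 230 CPM in CD4-CD8- cells of OT2 mice and 2.40, 0 and 26.4 CPM in their other cells. In OT1 mice Trgc4 had 322, 179 and 289 CPM in CD4-CD8- cells and 41.0, 5.80 and 16.1 CPM in the other cells, which gave a log2 fold change of 4.22 (SE 0.32, adjusted p = 1.12e-06 by edgeR). The direction was the same in 6 of 6 mice for each of these 3 constant genes.

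Trdc, the only delta constant gene, differed between the receptors in its fold between gates. CD4-CD8- cells of OT2 mice had 640, 566 and 417 CPM of Trdc, against 14.4, 26.3 and 105 CPM in their other cells. CD4-CD8- cells of OT1 mice had 988, 786 and 1003 CPM, against 277, 288 and 365 CPM in their other cells. Each mouse was higher in CD4-CD8- cells, and the log2 fold change over all 6 was 2.37 (SE 0.37, adjusted p = 0.000980 by edgeR). The other cells of OT1 mice all lay above those of OT2 mice. Tested as an interaction in edgeR, the fold between gates was 2.35 larger on the log2 scale in OT2 than in OT1 mice (SE 0.47, adjusted p = 0.0333 by edgeR). The call was lost without the OT2 NegSelected mouse (1.76, edgeR adjusted p = 0.306), without any 1 of the 3 OT1 mice (adjusted p between 0.0523 and 0.170), with the deepest 5% of cells of each mouse left out (0.0998), without cells near an antibody threshold (0.0940) and with unscaled thresholds (0.638). The difference lay between 1.1 and 3.2 over these and the other alternatives. Of the 12 members, 2 were called in that interaction test, both with a larger fold in OT2, where 0.356% of all genes were called in that direction and 0.171% in the other.

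**Figure D2:**
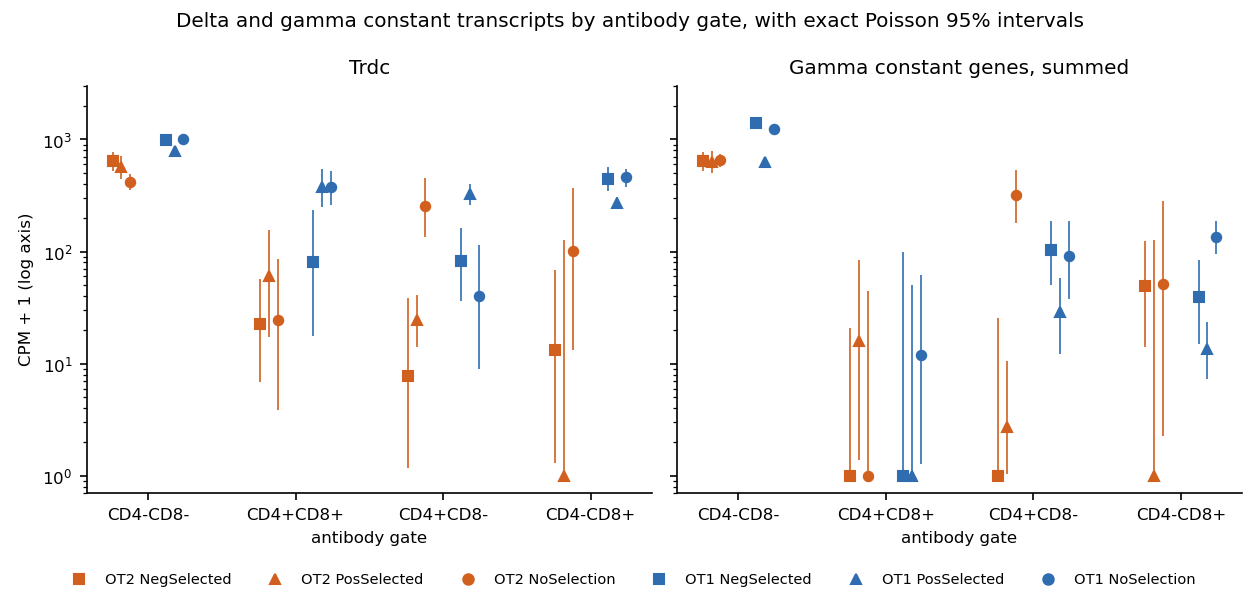
CPM + 1 on a log axis of Trdc (left panel) and of the gamma constant genes summed (right panel) in the 4 antibody gates, 1 point per mouse with its exact Poisson 95% interval, OT2 left of OT1. Both measures are high in CD4-CD8- cells of all mice, and Trdc of OT1 mice stays between 271 and 457 CPM in CD4-CD8+ cells, where the gamma constant genes lie between 12.5 and 135 CPM.

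Cells with Trdc outside the CD4-CD8- gate were found in every gate of OT1 mice. At least 1 Trdc UMI was seen in 97 of 185 CD4-CD8+ cells (52.4%, exact 95% interval 45.0 to 59.8), 22 of 48 CD4+CD8+ cells (45.8%, 31.4 to 60.8) and 33 of 98 CD4+CD8- cells (33.7%, 24.4 to 43.9). In OT2 mice the counts were 2 of 34 CD4-CD8+ cells, 7 of 150 CD4+CD8+ cells and 11 of 246 CD4+CD8- cells, or 4.65% of all cells outside the CD4-CD8- gate (2.86 to 7.09). In CD4+CD8+ cells a gamma constant UMI was seen in 1 of 48 OT1 cells and 1 of 150 OT2 cells. All mice shared 1 lane, and the part of free RNA in these counts was not tested. The median RNA depth of CD4+CD8+ cells lay between 3323 and 4112 UMIs in OT1 mice and between 1852 and 2471 UMIs in OT2 mice.

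The ratio of gamma constant to Trdc UMIs measured the same contrast within a mouse. In CD4-CD8- cells the ratio was 1.28 in OT2 mice (430 to 335 UMIs, exact 95% interval 1.11 to 1.49) and 1.22 in OT1 mice (3570 to 2924 UMIs, 1.16 to 1.28). In the other cells it was 0.550 in OT2 mice (22 to 40 UMIs, 0.311 to 0.948) and 0.133 in OT1 mice (78 to 588 UMIs, 0.103 to 0.168). By mouse, the ratio in CD4-CD8- cells was 1, 1.12 and 1.56 in OT2 mice and 1.41, 0.794 and 1.25 in OT1 mice. In the other cells it was 0.667 (4 to 6 UMIs), 0.111 (2 to 18 UMIs) and 1 (16 to 16 UMIs) in OT2 mice and 0.198, 0.0517 and 0.277 in OT1 mice. With the other gates pooled, the ratio was lower outside the CD4-CD8- gate in 6 of 6 mice. By single gate it was higher in CD4+CD8- cells of the OT1 NoSelection mouse (2.33, 7 to 3 UMIs). The same held for CD4-CD8+ cells of the OT2 NegSelected mouse (4, 4 to 1 UMIs). Of the 588 Trdc UMIs in the other cells of OT1 mice, 430 were in CD4-CD8+ cells. In the pooled other cells the OT2 PosSelected mouse lay within the range of the OT1 mice, and the OT2 values rest on few UMIs.

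The variable genes of the gamma chain, which form part of the site that meets the ligand, were also high in the CD4-CD8- gate. Trgv2 had 658, 958 and 791 CPM in CD4-CD8- cells of OT2 mice, against 14.4, 7.30 and 72.5 CPM in their other cells. In OT1 mice Trgv2 had 41.7, 93.1 and 53.8 CPM in CD4-CD8- cells, against 0, 1.66 and 11.5 CPM in the other cells. The level of the OT2 NoSelection mouse outside the CD4-CD8- gate was within the range of OT1 CD4-CD8- cells, so the gates overlapped over all mice but in no mouse. Trgv2 rose by 5.01 on the log2 scale (SE 0.41, adjusted p = 1.92e-06 by edgeR). For Trgv4, levels were 179, 366 and 289 CPM in CD4-CD8- cells and 0, 4.38 and 65.9 CPM in other cells of OT2 mice. OT1 mice had 4.06, 6.11 and 10.5 CPM of Trgv4 in CD4-CD8- cells and 0, 0 and 4.59 CPM in other cells. The log2 fold change of Trgv4 was 4.25 (SE 0.56, adjusted p = 0.000234 by edgeR), and it rested on few UMIs in OT1 mice, where 23 were counted in CD4-CD8- cells.

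Trgv1 had 167, 58.3 and 265 CPM in CD4-CD8- cells and 2.40, 4.38 and 105 CPM in other cells of OT2 mice. In OT1 mice it had 85.4, 44.3 and 101 CPM in CD4-CD8- cells and 0, 3.32 and 4.59 CPM in other cells, and its log2 fold change was 3.33 (SE 0.42, adjusted p = 0.000159 by edgeR). The OT2 NoSelection mouse stood apart in all 3 of these variable genes by its level outside the CD4-CD8- gate, which came from few cells: Trgv1 from 3, Trgv2 from 3 and Trgv4 from 4 of 57. Trgv7, a further segment of the first cluster, had 25 UMIs in 11 cells, of which 14 came from 1 cell, and did not pass the filter. Its level in CD4-CD8- cells was 0, 16.7 and 42.8 CPM in OT2 mice and 2.03, 0 and 2.09 CPM in OT1 mice.

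Joining segments are short and their counts low. Trgj4 had 23.1, 25.0 and 8.02 CPM in CD4-CD8- cells and 0 CPM in the other cells of all 3 OT2 mice. In OT1 mice it had 18.3, 22.9 and 25.8 CPM in CD4-CD8- cells and 3.42, 0.829 and 4.59 CPM in other cells, with a log2 fold change of 3.80 (SE 0.67, adjusted p = 0.00253 by edgeR). Trdj1, from which most delta chains take their J, had 5.77, 8.33 and 5.35 CPM in CD4-CD8- cells and 0 CPM in the other cells of OT2 mice. In OT1 mice it had 27.4, 30.5 and 44.7 CPM in CD4-CD8- cells and 0, 3.32 and 6.89 CPM in other cells, and rose by 3.28 on the log2 scale (SE 0.54, adjusted p = 0.00141 by edgeR). These 2 folds depend on counts near 0. Trgj1 and Trgj2, which did not pass the filter, had at most 20.3 and 18.3 CPM in CD4-CD8- cells of any mouse, and 0 and 2 UMIs in all other cells.

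The delta variable genes were not called between the gates. Trdv1 had 75.0, 0 and 64.2 CPM in CD4-CD8- cells and 12.0, 16.1 and 85.6 CPM in other cells of OT2 mice. In OT1 mice it had 4.06, 18.3 and 1.40 CPM in CD4-CD8- cells and 41.0, 39.0 and 36.7 CPM in other cells, so that 5 of 6 mice were lower in CD4-CD8- cells (log2 fold change -1.16, SE 0.60, adjusted p = 0.351 by edgeR). For Trdv2-2, CD4-CD8- cells had 133, 66.6 and 34.8 CPM and other cells 14.4, 24.8 and 19.8 CPM in OT2 mice. OT1 mice had 27.4, 29.0 and 42.6 CPM of Trdv2-2 in CD4-CD8- cells and 20.5, 37.3 and 36.7 CPM in other cells (log2 fold change 0.74, SE 0.36, adjusted p = 0.320 by edgeR). The gates overlapped for both genes. Trdv5 had 127, 50.0 and 112 CPM in CD4-CD8- cells and 0, 7.30 and 13.2 CPM in other cells of OT2 mice, but 21.3, 24.4 and 5.59 CPM in CD4-CD8- cells and 37.6, 11.6 and 36.7 CPM in other cells of OT1 mice. All 3 OT2 mice were higher in CD4-CD8- cells, and 2 of 3 OT1 mice were lower. Its fold over all mice was 0.99 on the log2 scale (SE 0.70, adjusted p = 0.546 by edgeR), while the difference of the fold between receptors was called in edgeR's interaction test (4.58 on the log2 scale, OT2 minus OT1, SE 0.96, adjusted p = 0.0385). That call was lost in edgeR without the OT2 NegSelected (adjusted p = 0.313), OT2 NoSelection (0.117), OT1 NegSelected (0.0850) or OT1 NoSelection mouse (0.161), with the deepest 5% of cells of each mouse left out (0.0921) and with unscaled antibody thresholds (0.603). Trdv5 came from 39 cells in all, and 62.0% of its UMIs from 10 of them. The remaining named delta variable gene, Trdv4, had 21 UMIs, all in CD4-CD8- cells, of which 9 came from 1 cell of the OT2 PosSelected mouse. Its level was 0, 74.9 and 0 CPM in OT2 mice and 3.05, 0 and 6.28 CPM in OT1 mice.

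Against CD4+CD8+ cells alone, 9 members passed the filter in the 5 mice with at least 10 cells in both gates (the OT1 NegSelected mouse had 9 CD4+CD8+ cells and was left out). Of these, 7 were higher in CD4-CD8- cells, where 5.67% of the 3984 genes tested were called higher and 3.14% lower. In the CD4+CD8+ cells of those mice, Trgv1 and Trgc4 had 0 UMIs in 501498 RNA UMIs, and Trgc1, Trgc2, Trgv2 and Trgv4 had 1 UMI each. These 6 of the 7 called members passed the filter through their CD4-CD8- level, so nothing is read from the count against the background. With a floor of 3 counts over the group, Trgc4 was at least 40.1-fold higher and Trgv1 at least 18.7-fold higher in CD4-CD8- cells. Trdc was at 830 CPM in the pooled CD4-CD8- cells against 144 CPM in the pooled CD4+CD8+ cells (log2 fold change 2.50, SE 0.41, adjusted p = 0.000666 by edgeR). Trdv5 (2.53 on the log2 scale, edgeR adjusted p = 0.0763) and Trdv1 (-0.33, adjusted p = 0.909) were not called.

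Because depth per cell differed between gates, shares of cells were taken after thinning each cell to 1500 UMIs, which left out 71 shallower cells. The share of CD4-CD8- cells with a gamma constant UMI was then 44.8%, 39.1% and 46.9% in OT2 mice and 68.1%, 43.5% and 68.3% in OT1 mice. In the other cells it was 0.787%, 0% and 6.25% in OT2 mice and 5.17%, 1.08% and 8.45% in OT1 mice. The mean difference between gates was 48.2 ± 10.4 percentage points (SD, n = 6 mice), and the groups did not overlap. For Trdc, 37.9%, 30.4% and 36.7% of CD4-CD8- cells of OT2 mice had a UMI, against 3.15%, 2.76% and 10.4% of their other cells. In OT1 mice the Trdc shares were 67.4%, 62.4% and 72.2% of CD4-CD8- cells, against 13.8%, 26.5% and 22.5% of the others, and the mean difference over 6 mice was 38.0 ± 11.3 points. Gamma variable genes differed by 38.7 ± 25.5 points in the same direction in 6 of 6 mice, and delta variable genes by 6.96 ± 11.6 points, higher in 4 of 6. Unthinned, the shares of CD4-CD8- cells were 65.1% for gamma constant genes and 64.2% for Trdc in OT2 mice, and 81.3% and 90.9% in OT1 mice. These shares were not tested.

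The second question was whether mice of the 2 receptors use the same segments. Within CD4-CD8- cells, 2 of the 3 gamma variable genes tested were called between OT2 and OT1 mice (Trgv2 and Trgv4, not Trgv1), as was Trdv5 among the delta variable genes. Over 12 members tested in an edgeR fit with terms for receptor and host, 3 were higher in OT2 and 0 lower, where 0.451% of the 7324 genes tested were called higher and 0.314% lower. The fit compared 3 mice with 3, and the NoSelection hosts of the 2 receptors differ in genotype, so receptor and host genotype cannot be told apart in that pair of mice. Trgv4, at 179, 366 and 289 CPM in OT2 against 4.06, 6.11 and 10.5 CPM in OT1 mice, was 5.15 higher on the log2 scale (SE 0.31, adjusted p = 5.04e-08 by edgeR). Trgv2, at 658, 958 and 791 CPM in OT2 against 41.7, 93.1 and 53.8 CPM in OT1 mice, was 3.69 higher (SE 0.23, adjusted p = 7.61e-08 by edgeR). Neither gene's groups overlapped, and both were called in all 12 alternatives tried. Trdv5, at 127, 50.0 and 112 CPM in OT2 against 21.3, 24.4 and 5.59 CPM in OT1 mice, was 2.74 higher (SE 0.44, adjusted p = 0.00455 by edgeR), in 3 of 3 hosts. That call was lost without the OT1 NegSelected mouse and with antibody thresholds on unscaled UMIs.

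**Figure D3:**
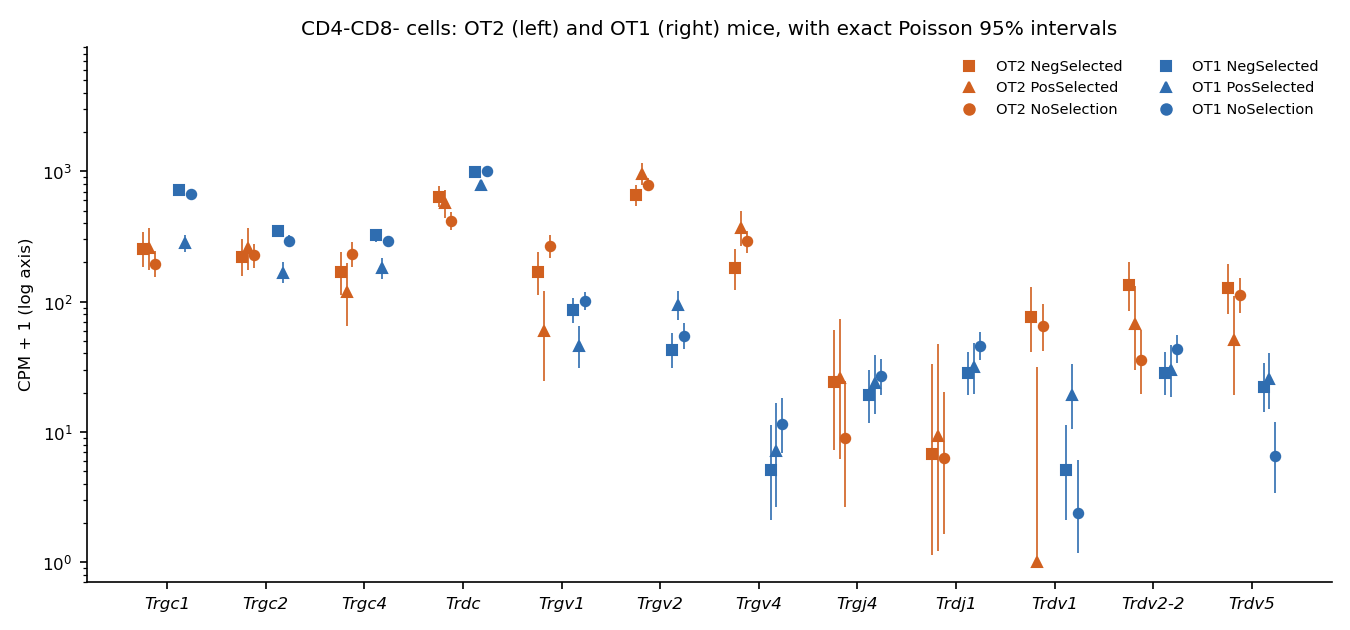
CPM + 1 on a log axis of 12 segment genes in the CD4-CD8- cells of each mouse, OT2 left and OT1 right, with exact Poisson 95% intervals. For Trgv2 and Trgv4 all OT2 mice lie above all OT1 mice, while for Trgc2 and Trgj4 the points of both receptors overlap.

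None of the constant genes was called between the receptors. Trgc1 was lower in 3 of 3 hosts in OT2 CD4-CD8- cells (-1.26 on the log2 scale, SE 0.29, adjusted p = 0.0565 by edgeR), as were Trgc4 (-0.65, adjusted p = 0.479) and Trdc (-0.85, adjusted p = 0.101), and Trgc2 was at -0.24 (adjusted p = 0.999). The threshold was not passed either by Trdj1 (-2.61, adjusted p = 0.0521), Trgv1 (1.03, adjusted p = 0.104), Trdv1 (3.07, adjusted p = 0.128), Trdv2-2 (0.97, adjusted p = 0.674) or Trgj4 (-0.57, adjusted p = 0.999). A miss of the threshold does not show equal levels.

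The balance of variable to constant UMIs differed between receptors. Per gamma constant UMI, the CD4-CD8- cells had 1.59, 2.22 and 2.14 gamma variable UMIs in OT2 mice and 0.0972, 0.230 and 0.136 in OT1 mice. The ranges did not overlap. Pooled, the ratio was 2.01 in OT2 (866 to 430 UMIs, exact 95% interval 1.79 to 2.27) and 0.132 in OT1 mice (470 to 3570 UMIs, 0.119 to 0.145). The ratio of delta variable to Trdc UMIs was 0.523, 0.338 and 0.513 in OT2 mice and 0.0576, 0.0913 and 0.0557 in OT1 mice, again with no overlap.

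Which gamma variable gene prevailed also differed. Trgv2 made up 64.4%, 68.0% and 56.9% of gamma variable UMIs in CD4-CD8- cells of OT2 mice, against 30.8%, 64.9% and 31.7% in OT1 mice. Trgv1 made up 16.4%, 4.14% and 19.0% in OT2 mice, against 63.2%, 30.9% and 59.3% in OT1 mice. Trgv4 contributed 17.5%, 26.0% and 20.8% in OT2 mice, against 3.01%, 4.26% and 6.17% in OT1 mice. Trgv2 led in all OT2 mice and, among OT1 mice, only in the PosSelected host. Trgv1 and Trgv4 shares did not overlap between receptors. Trgc1 made up 39.6%, 40.8% and 30.0% of gamma constant UMIs in OT2 mice and 51.5%, 44.7% and 53.3% in OT1 mice, with the uncertainty on copies given above. Over all cells, 28.5% of Trgc1 UMIs came from 10 cells, against 14.7% for Trgc2 and 12.3% for Trgc4, and 1 cell held 122 Trgc1 UMIs. Among delta variable UMIs, Trdv5 held 37.9%, 26.1% and 52.5% in OT2 mice and 37.5%, 34.0% and 10% in OT1 mice. Trdv2-2 held 39.7%, 34.8% and 16.2% in OT2 mice and 48.2%, 40.4% and 76.2% in OT1 mice. Trdv5 exceeded Trdv2-2 in the OT2 NoSelection mouse and in none of the other 5, and these shares rest on 23 to 80 delta variable UMIs per mouse.

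Over all cells, where the 3 mice of each receptor also differ in their shares of CD4-CD8- cells, 2 of 12 members tested were higher in OT2 and 3 lower, against 0.671% and 0.396% of 9092 genes. Fewer cells of a type and less RNA per cell cannot be told apart in these sums. Members low in 1 receptor, such as Trgv4 in OT1 and Trdj1 in OT2 mice, could pass the filter through the other receptor. Nothing is therefore read from these counts against the background. Trgv4 (4.48 on the log2 scale, SE 0.26, adjusted p = 0.000115 by edgeR) and Trgv2 (2.85, SE 0.29, adjusted p = 0.00355) were the higher ones. Trdc had 198, 107 and 327 CPM over all cells in OT2 against 825, 464 and 855 CPM in OT1 mice, and was lower (-1.88, SE 0.19, adjusted p = 0.00355 by edgeR). Trgc1 had 79.7, 39.7 and 150 CPM in OT2 and 554, 99.9 and 525 CPM in OT1 mice (-2.04, SE 0.28, adjusted p = 0.0162 by edgeR), and the groups overlapped. Trdj1 had 1.70, 1.24 and 3.80 CPM in OT2 and 21.1, 12.9 and 35.9 CPM in OT1 mice (-3.35, SE 0.48, adjusted p = 0.0178 by edgeR). The calls of Trgc1, Trdj1 and Trdc were lost without the OT1 NegSelected mouse, those of Trgc1 and Trdj1 also without the OT2 NegSelected mouse, and that of Trdj1 with DESeq2.

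The third question was whether the host, and with it selection, altered the segments. In all cells, edgeR called 0 of 12 members for PosSelected against NoSelection, with 8 at an unadjusted p under 0.05 and 5 called lower by DESeq2. Among all 9092 genes edgeR called 0.0110% higher and 0 lower, 7.30% had an unadjusted p under 0.05, and DESeq2 called 0.165% higher and 0.231% lower. Trgv1 was lowest by fold, with 50.9 and 65.8 CPM in the NegSelected, 12.4 and 17.7 CPM in the PosSelected and 219 and 78.2 CPM in the NoSelection hosts (OT2 and OT1 mice). PosSelected against NoSelection gave -2.97 for Trgv1 on the log2 scale (SE 0.48, adjusted p = 0.123 by edgeR), and -2.36 for Trgc4 (adjusted p = 0.159). The median over the 12 members was -1.33, against -0.01 over all genes. The share of CD4-CD8- cells, 9.84% in the OT2 and 31.9% in the OT1 PosSelected mouse against 47.2% and 74.8% in NoSelection mice, moved the same way.

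With the gate held fixed, the members' median depended on the mice and cells used. Within CD4-CD8- cells, edgeR called 0 of 12 members for PosSelected against NoSelection, with 2 at an unadjusted p under 0.05 and 0 called by DESeq2, where 1.90% of all genes had such a p. The median over members was -0.02. It was -0.63 without the OT2 PosSelected mouse, -0.50 without the OT2 NoSelection mouse and 0.29 without the OT1 PosSelected mouse. It was -0.69 with the deepest 5% of cells of each mouse left out and -0.78 with unscaled antibody thresholds, where 6 members had an unadjusted p under 0.05. Over all cells the median lay between -2.54 and -1.32 in the alternatives tried. Trgv1 had 58.3 and 44.3 CPM in the PosSelected against 265 and 101 CPM in the NoSelection hosts (OT2 and OT1 mice), or -1.53 on the log2 scale (SE 0.33, adjusted p = 0.478 by edgeR). NegSelected against PosSelected gave 0 calls in edgeR and DESeq2 within CD4-CD8- cells, with 5 members at an unadjusted p under 0.05 (2.14% of all genes), and NegSelected against NoSelection gave 0 calls in both, with 1 such member (1.30% of all genes). In all cells NegSelected against PosSelected gave 0 calls in edgeR, 5 members at such a p (4.60% of all genes) and 1 call by DESeq2, higher, where DESeq2 called 0.0330% of all genes higher. NegSelected against NoSelection gave 0 calls in both tools and 3 members at such a p (2.60% of all genes). Over all genes, edgeR called 0% in these 5 comparisons in either direction. Each host was represented by 1 mouse per receptor.

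The next description is of segments in single cells. Of the 570 CD4-CD8- cells, 43.9% held both a gamma constant and a gamma variable UMI, 34.4% a constant UMI alone, 5.61% a variable UMI alone and 16.1% neither. The constant-only cells were 3 of 109 in OT2 mice (2.75%) and 193 of 461 in OT1 mice (41.9%). The number of gamma variable genes per cell differed between the receptors. At least 3 were detected in 35 of 109 CD4-CD8- cells of OT2 mice (32.1%), against 2 of 461 cells of OT1 mice (0.434%). Exactly 2 were detected in 31.2% of OT2 and 4.99% of OT1 cells, exactly 1 in 11.9% and 38.0%, and none in 24.8% and 56.6%.

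**Figure D4:**
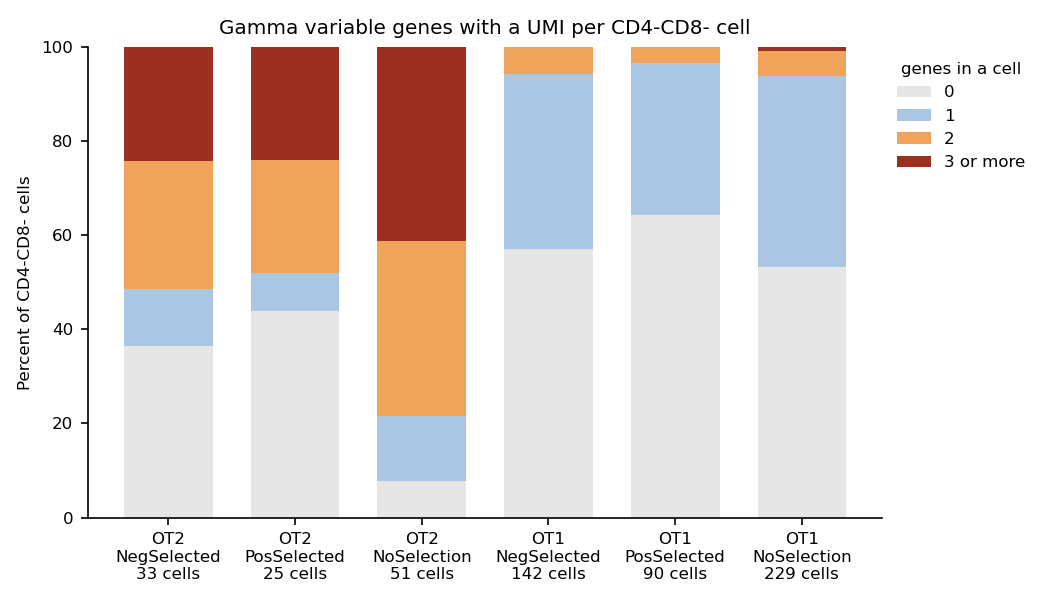
Percent of CD4-CD8- cells of each mouse in which 0, 1, 2 or at least 3 gamma variable genes had a UMI, OT2 mice left of OT1 mice. Cells with at least 3 genes are 8 of 33, 6 of 25 and 21 of 51 in OT2 mice and at most 2 of 229 in OT1 mice, in which cells with 0 or 1 gene prevail.

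In OT2 CD4-CD8- cells the usual combinations were Trgv1, Trgv2 and Trgv4 together in 30 of 109 cells (27.5%) and Trgv2 with Trgv4 in 24 (22.0%). Trgv1 with Trgv2 was found in 14 cells (12.8%), and Trgv1 alone of the 3 genes in 1 (0.917%). By mouse, all 3 genes were found together in 8 of 33, 4 of 25 and 18 of 51 OT2 cells. In OT1 CD4-CD8- cells the most frequent state with any of these genes was Trgv1 alone, in 141 of 461 cells (30.6%), or 46 of 142, 18 of 90 and 77 of 229 by mouse. All 3 genes were together in 2 OT1 cells (0.434%). These counts do not separate 2 rearranged chromosomes from transcripts of unrearranged segments, and doublets were not removed here. With the deepest 5% of cells of each mouse left out, at least 3 gamma variable genes were detected in 24 of 87 CD4-CD8- cells of OT2 mice (27.6%) and 2 of 429 of OT1 mice (0.466%). By OT2 mouse these were 5 of 25, 1 of 17 and 18 of 45 cells, so in the PosSelected mouse the share was 5.88% without the deepest cells, against 24% with them.

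Constant genes were counted in CD4-CD8- cells with and without a Trgv2 UMI, which differed in depth. In OT2 mice the median was 6440 RNA UMIs in cells with Trgv2 and 3065 in those without, and in OT1 mice 6913 and 5214. A Trgc2 UMI was found in 55 of 76 OT2 cells with Trgv2 (72.4%) and in 0 of 33 without it. Trgc1 was found in 50 of the 76 and in 1 of the 33, Trgc4 in 50 and 6, and Trdc in 62 and 8. In OT1 mice Trgc2 was found in 31 of 39 CD4-CD8- cells with Trgv2 (79.5%) and 221 of 422 without it (52.4%). Trgc1 was found there in 27 of 39 against 254 of 422 cells, and Trgc4 in 24 of 39 against 245 of 422.

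Pooled over receptors, segments of a cluster were often seen in the same cell. Trgc4 was found in 159 of 207 CD4-CD8- cells with Trgv1 (76.8%), its neighbour in the last cluster, and in 166 of 363 without Trgv1 (45.7%). It was found in 61 of 66 cells with Trgj4 (92.4%), against 264 of 504 without. Trgc1 was found in 28 of 29 cells with Trgj1 and Trgc2 in 25 of 27 cells with Trgj2. Constant genes of other clusters were frequent in these cells too, as with Trgc2 in 25 of the 29 cells with Trgj1, so the pairing was not exclusive. Cells with more UMIs have more chance of both segments, and the part of depth in these shares was not tested.

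Protein of the chains was read with antibodies. The tags that carry the counts of the pair on which the next values turn are shown in lower case, 5′ to 3′, as in the deposited list of antibodies.
TCRGD: aacccaaatagctga
TCRVG1.1: tcgtttaaccagcct
The TCRGD antibody, against the gamma delta receptor, had a median of 12 UMIs in CD4-CD8- cells and 13 in the other cells. Among CD4-CD8- cells it was set per 10000 antibody UMIs in cells with gamma variable, gamma constant and Trdc UMIs (14, 11 and 31 cells in OT2 and 55, 27 and 90 in OT1 mice) and in cells without a gamma segment (9, 11 and 4 cells in OT2 and 15, 32 and 21 in OT1 mice). In OT2 mice TCRGD was 34.3, 37.1 and 46.5 in the cells with the segments and 20.5, 13.7 and 31.8 in those without. OT1 mice had 30.3, 30.6 and 29.9 in the cells with the segments and 40.9, 33.0 and 35.8 in those without. Unscaled TCRGD medians per cell were 12, 16 and 9 UMIs with the segments and 10, 6 and 17 without in OT2 mice. In OT1 mice these medians were 15, 4 and 13 with the segments and 11, 6.50 and 8 without. Per 10000, TCRGD was thus higher with the segments in 3 of 3 OT2 mice and lower in 3 of 3 OT1 mice, while the medians did not keep to this pattern. The highest cell with the segments in the OT2 NoSelection mouse had 120 TCRGD UMIs. Per 10000, the alpha beta receptor antibody (TCRB) ran the same way as TCRGD by mouse. It was at 61.9, 95.6 and 50.3 with the segments and 26.8, 19.9 and 15.2 without in OT2 mice. In OT1 mice TCRB was at 46.6, 43.4 and 42.7 with the segments and 50.9, 43.7 and 49.5 without. The TCRVG1.1 antibody gave 28.0, 31.3 and 49.4 per 10000 in OT2 CD4-CD8- cells with Trgv1, against 27.2, 20.4 and 25.4 in those without. In OT1 mice TCRVG1.1 was 24.5, 24.8 and 24.8 with Trgv1 and 27.2, 25.3 and 26.1 without, so it was higher with Trgv1 in 3 of 3 OT2 mice and lower in 3 of 3 OT1 mice. In the OT2 NoSelection mouse the median TCRVG1.1 count of cells with Trgv1 was 8 UMIs and the highest 137. No test was made over cells, and a second antibody of the list against the gamma delta receptor had 0 UMIs. The remaining gamma chain antibodies carry numbers that differ between naming systems and are not set against a segment here.

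A set of 4 cells stood apart in both antibodies, which were singled out after their values were seen. Their TCRGD counts were 173, 120, 70 and 67 UMIs, and the next cell had 49. The same cells had 234, 137, 67 and 93 TCRVG1.1 UMIs, and 13, 4, 2 and 10 UMIs of Trgv1 RNA. TCRB was at 4, 7, 11 and 6 UMIs in them, against 47 in the cell with the next highest TCRGD count. Its median over all cells was 42.5 UMIs in the OT2 PosSelected and 8 in the OT2 NoSelection mouse. All 4 came from OT2 mice, 3 from the NoSelection and 1 from the PosSelected host, and 2 of them were CD4-CD8- and 2 CD4+CD8-. Both CD4-CD8- cells came from the NoSelection mouse and are part of its antibody values given above. Each held Trgv2 RNA (7, 4, 5 and 9 UMIs) and Trdc RNA (8, 9, 8 and 1 UMIs), so TCRGD counts over 49 UMIs were seen in 4 of the 1331 cells while gamma variable RNA was seen in 303.

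**Figure D5:**
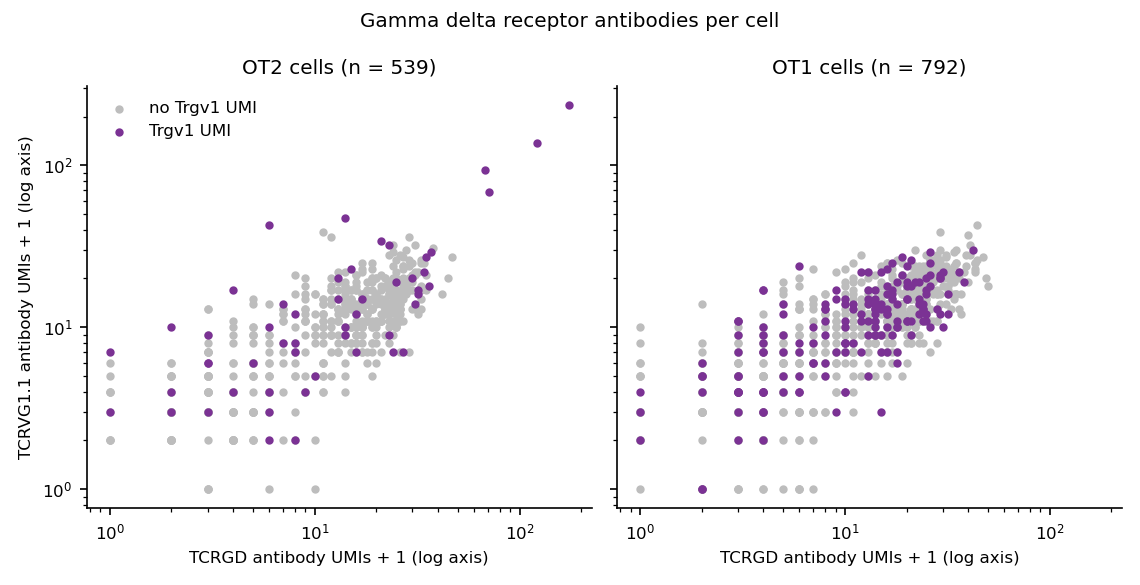
UMIs + 1 per cell of the TCRGD antibody (x, log axis) and the TCRVG1.1 antibody (y, log axis) in OT2 (left) and OT1 (right) cells, coloured by Trgv1 RNA. The 4 OT2 cells with 67 to 173 TCRGD UMIs lie apart at the upper right, while the other cells with Trgv1 RNA lie among the cells without it.

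A list of genes known for gamma delta T cells was compared between the same gates. Of 14 genes on that list, 13 were in the file and 11 were tested in CD4-CD8- against other cells. Of these, 7 were higher and 0 lower, where 3.57% of all genes tested were called higher and 2.46% lower. Sox13, Maf, Blk, Cpa3 and Cd163l1 each had 0 UMIs in the other cells of at least 1 mouse. Such genes could pass the filter through their CD4-CD8- level, so nothing is read from this count against the background. Nor is anything read from the median log2 fold change, which was 2.90 over the 11 genes and -0.01 over all genes. Sox13, a transcription factor of the gamma delta lineage, averaged 284 CPM in CD4-CD8- and 5.81 CPM in other cells (5.99 on the log2 scale, SE 0.31, adjusted p = 3.28e-08 by edgeR). Maf (5.65), a factor of interleukin-17-producing gamma delta cells, Blk (5.35), a kinase of the same cells, and Etv5 (4.91), a factor induced by gamma delta receptor signals, were also higher, as were Cpa3 (6.91), Cd163l1 (2.90) and Gata3 (1.43). Id3 (-0.27), Cd27 (-0.02) and Zbtb16 (0.94) were not called. Trac, the alpha constant gene, was lower in 6 of 6 mice (-1.63, SE 0.13, adjusted p = 1.62e-06 by edgeR). Trbc2 (-0.78) was lower in 6 of 6 and Trbc1 (-0.90) in 5 of 6. Of the CD3 genes, whose products carry both receptor types to the surface, 1 of 4 was called (Cd3d, -0.64, edgeR adjusted p = 0.0490). Rag1, which cuts the segments for joining, was lower (-3.77, SE 0.34, adjusted p = 5.91e-06 by edgeR), and Rag2 (-2.52, adjusted p = 0.0739) and Dntt (0.67, adjusted p = 0.488) were not called.

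Between receptors, within CD4-CD8- cells, 1 of 10 genes tested of that list was called, where 0.451% of all genes were called higher and 0.314% lower. It was Cd163l1, a scavenger receptor of gamma delta cells, which was lower in OT2 (29.8 CPM on average in OT2 and 232 CPM in OT1 mice, -3.34 on the log2 scale, SE 0.39, adjusted p = 0.000219 by edgeR). Sox13 (0.14, adjusted p = 0.999), Maf (0.08, adjusted p = 0.999) and Blk (-0.69, adjusted p = 0.805) were not called. Trac averaged 970 CPM in OT2 and 108 CPM in OT1 CD4-CD8- cells (3.15 on the log2 scale, SE 0.22, adjusted p = 3.13e-07 by edgeR), higher in 3 of 3 hosts. Over all cells Trac averaged 2103 CPM in OT2 and 190 CPM in OT1 mice, the direction opposite to that of Trdc. A link between these genes was not tested, and UMIs of transgenic and endogenous alpha chains were not told apart.

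Markers of other cell types were summed over the same cells. Those of B cells lay between 28.8 and 45.7 CPM in CD4-CD8- cells and between 3.42 and 39.5 CPM in other cells. Of these 5 genes 1 was tested, Cd79b, and was higher (1.82, edgeR adjusted p = 0.0371). Myeloid markers summed to between 91.6 and 238 CPM in CD4-CD8- and between 68.6 and 145 CPM in other cells, with 2 of 5 tested, Fcer1g called higher (5.38, edgeR adjusted p = 0.00175, higher in 4 of 6 mice) and Itgam at 0 in the CD4-CD8- cells of every mouse. Fcer1g was also higher in OT2 than in OT1 CD4-CD8- cells (4.10, edgeR adjusted p = 0.00411), in 2 of 3 hosts. In CD4-CD8- cells of the OT1 NegSelected and OT2 PosSelected mice, 4 of the 5 myeloid genes were at 0, so 1 gene made up the sum. Kit, on the mast cell list and also a marker of early thymocytes, was higher in CD4-CD8- cells (2.32, edgeR adjusted p = 0.00834), with Mcpt4 and Ms4a2 at 0 throughout. NK and ILC markers reached at most 21.4 CPM in CD4-CD8- cells and 20.7 CPM in other cells, erythroid markers 1.40 and 0.829 CPM, and thymic epithelium markers 42.8 and 19.8 CPM, and none of their genes was called. The thymic epithelium sum in CD4-CD8- cells was Epcam alone, with Krt8, Krt5, Psmb11 and Aire at 0 there in every mouse. The part of these other cell types in the results was not tested.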

How the data were processed

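RNA and antibody UMI counts of 1331 cells were used as deposited. The count matrices came from Cell Ranger 8.0.1 on mm10, and Seurat was used, per the submitters' processing notes. The cell filters are not given in the sources used here, no doublet caller was run, libraries shared 0 barcodes, and the receptor sequencing libraries were not analysed here. Antibody UMIs were scaled to 10000 per cell and split on the log2 scale by a mixture of 2 Gaussians (thresholds 7.22 for CD4 and 7.64 for CD8A). Scaling was planned as the alternative and became the main choice after the distributions were seen, since unscaled thresholds gave CD4-CD8- cells a median of 2634 antibody UMIs, against 4789 to 5479 in the other gates. UMIs were summed per mouse and gate and tested two-sided with edgeR 4.0.16 (quasi-likelihood, TMM, filterByExpr, R 4.3.3) over all genes, checked on simulated data, with Benjamini-Hochberg adjustment at 0.05. In simulated counts with the same spread for every gene, 2-fold changes were recovered for 77 of 100 genes between CD4-CD8- and other cells. They were recovered for 41 of 100 between receptors over all cells, 27 within CD4-CD8- cells and 19 for PosSelected against NoSelection over all cells. Of 4-fold changes, 100, 95, 84 and 86 of 100 were recovered in that order, so 0 calls between hosts does not show equal levels. DESeq2 1.42.0, other filters and thresholds, and leaving out each mouse were alternatives. The interaction test and its alternatives were added after the data were seen, as were the counts of variable genes per cell without the deepest cells. Members, gene lists and the genes named (every member with at least 20 UMIs, and the genes of the lists) were chosen with earlier results of these data known. Labels give no replicate numbers, and gates of a mouse were paired because they are cells of the same animal. P-values rest on the spread between 6 mice in different hosts. Results of some genes of the lists are not reported here.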

Additional observations from a re-analysis of the deposited data

Results flagged for a closer look

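The difference between CD4-CD8- cells and the other cells depended on the receptor for 2 segment genes, by the edgeR interaction term with adjustment over 7590 genes. For Trdc the log2 fold was 2.35 larger in OT2 than in OT1 mice (SE 0.47, adjusted p = 0.0333). Its mean was 541 CPM in OT2 and 926 CPM in OT1 CD4-CD8- cells, and 48.7 CPM in OT2 and 310 CPM in OT1 cells of the other gates. For Trdv5 the difference was 4.58 (SE 0.96, adjusted p = 0.0385), with 96.4 CPM in OT2 and 17.1 CPM in OT1 CD4-CD8- cells, and 6.82 CPM in OT2 and 28.6 CPM in OT1 cells of the other gates. Trdv5 came from 39 cells. Under 13 alternatives added after the data were seen, the call was kept in 6 for Trdc and in 7 for Trdv5, with the same sign in all of them (1.1 to 3.2 for Trdc, 3.6 to 6.8 for Trdv5). Both calls were lost with unscaled antibody thresholds (adjusted p = 0.638 for Trdc and 0.603 for Trdv5), with the deepest 5% of cells of each mouse left out (0.0998 and 0.0921), and without the OT2 NegSelected (0.306 and 0.313), OT1 NegSelected (0.0523 and 0.0850) or OT1 NoSelection mouse (0.170 and 0.161). That of Trdc was also lost without the OT1 PosSelected mouse (0.0888) and without cells near a threshold (0.0940), and that of Trdv5 without the OT2 NoSelection mouse (0.117).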

How the results depend on the processing

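Of 276 alternative values for the called members outside the interaction test, 268 kept the call, 8 lost it and 0 reversed. Alternatives in which a called member did not pass the filter gave no value and are not among the 276. For CD4-CD8- against other cells, Trgj4 had values in 7 alternatives, where Trgc1 had 13. Without the filter on low counts, the members called were 5 higher and 3 lower (OT2 against OT1 within CD4-CD8- cells, 0.394% and 0.365% of all genes), 4 higher and 5 lower (OT2 against OT1, all cells, 1.25% and 1.83%), 7 lower (PosSelected against NoSelection, all cells, 0.841%) and 1 lower (within CD4-CD8- cells, 0.0290%), 5 higher (NegSelected against PosSelected, 0.339%), 3 lower (NegSelected against NoSelection, 0.162%) and 1 lower (CD4-CD8- against other cells, 1.67%). Over all cells DESeq2 called 5 lower for PosSelected against NoSelection (0.231% of all genes) and 1 higher for NegSelected against PosSelected (0.0330%). With the deepest 5% of cells of each mouse (70 cells) left out, 3 were lower for OT2 against OT1 within CD4-CD8- cells (0.630% of all genes). Over all cells 5 were lower for OT2 against OT1 (1.30%) and 7 lower for PosSelected against NoSelection (0.746%). For NegSelected against PosSelected 1 was higher (0.103%). Within CD4-CD8- cells, 1 was lower in OT2 with unscaled antibody thresholds (0.202% of all genes) and 2 without cells near a threshold (0.574%). The cause of these changes was not tested. Without the replicate block by mouse, 4 of 4 tested members were higher against CD4+CD8+ cells (6.54% of all genes). Against all other cells 6 of 9 were higher (3.22%). No paired analysis was possible by replicate number because the labels give none. The fits of receptors had the host as a term, and those of hosts the receptor. Leaving out each mouse in turn gave 8 to 9 higher (2.47% to 3.76% of all genes) and 0 to 1 lower (1.62% to 2.70%) for CD4-CD8- against other cells. Against CD4+CD8+ cells it gave 7 to 8 higher (2.78% to 7.05%). For OT2 against OT1 it gave 2 to 4 higher and 0 to 5 lower, where 0 was the count without the OT1 NegSelected mouse, and within CD4-CD8- cells 2 to 5 higher and 0 to 3 lower. Between hosts, leaving out a mouse could leave 1 mouse in a group, so only the members' median log2 fold is given. Over all cells it lay between -2.26 and -1.45 for PosSelected against NoSelection. It lay between 0.54 and 1.21 for NegSelected against PosSelected and between -1.36 and -0.13 for NegSelected against NoSelection. Within CD4-CD8- cells it lay between -0.63 and 0.29, -0.18 and 0.46, and -0.31 and 0.14 in that order. The number of members called between hosts also changed with the mouse left out. The difference in share of cells with a gamma constant UMI was 63.8 points without thinning, 36.7 with unscaled thresholds and 26.5 with at least 2 UMIs, and that for Trdc 50.8 without thinning and 23.6 with at least 2 UMIs. Few cells, 25 to 51 CD4-CD8- cells per OT2 mouse, limit the precision of rare segments.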

Other observations

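Some variable genes can be joined to either an alpha or a delta chain and carry both names (Trav-dv). Of 10 such genes in the file, 9 had a UMI, with 659 UMIs in all, of which 264 were in CD4-CD8- cells. The genes were unlike each other. Trav15-2-dv6-2 had 29 of 37, 29 of 31 and 46 of 46 UMIs in CD4-CD8- cells of OT2 mice. In OT1 mice it had 0 UMIs, 0 of 6 and 17 of 19. Trav4-4-dv10 had 0 of 10, 1 of 29 and 0 of 10 UMIs in CD4-CD8- cells of OT2 mice. Their chain of use cannot be read from these counts, and they were not among the segments described.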
